A study of Mus musculus with 88 samples.

Results

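Gene expression was compared in the ventral hippocampus (vHPC) of 5 stress-susceptible and 6 control D2 mice, and each gene that differed was sorted by whether its change ran along the difference between unstressed D2 and B6 mice. The comparison took in 11 of the 28 vHPC libraries and 11 of the 88 libraries of the series, and all 19559 genes of the vHPC table. In the study, young males of 2 inbred strains went through chronic social defeat stress (CSDS), in which a mouse meets a new aggressive CD1 male day after day. Defeated mice that avoided an unfamiliar mouse in the social avoidance test were classed as susceptible, those that behaved like controls of their own strain as resilient, and the tissue was taken 6 to 8 days after the last defeat, at an age of 8 weeks. RNA of the dissected vHPC of 1 mouse was sequenced for each library, and levels are given as log2 of the reads per 1000000 (log2 CPM).

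The groups used were 6 D2 controls (DBA/2Crl, not defeated, paired with other controls in the same kind of cage), 5 D2 susceptible mice (DBA/2Crl, defeated) and, for the strain difference, 6 B6 controls (C57BL/6Crl, not defeated). The 3 susceptible and 8 resilient defeated B6 mice entered the fit and are used where a result turns on them. There was no resilient D2 group in the vHPC, so the effect of defeat and the effect of becoming susceptible cannot be told apart in D2 mice.

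The ventral part of the hippocampus sends axons to the amygdala, the prefrontal cortex and the bed nucleus of the stria terminalis, and is known for its part in anxiety and in the control of stress hormones. Neurons that have been active transcribe immediate early genes such as those of the Fos and Jun families, and oligodendrocytes wrap axons in myelin. Inbred strains carry fixed alleles, so a transcript can be abundant in one strain and close to absent in the other whatever the mice have been through. A contrast within 1 strain compares mice of the same genotype, and is therefore normally free of such allelic differences.

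The tissue carried the markers of the hippocampus. In the 11 D2 libraries Zbtb20 lay between 9.52 and 9.79 log2 CPM, Fibcd1 between 7.1704 and 7.57, Neurod6 between 6.497 and 6.799 and Prox1 between 5.59 and 6.23, and none of these 4 genes passed the test between the groups (limma adjusted p under 0.05). The striatal markers Adora2a and Drd2 stayed under 0.94 and 1.38, and the thalamic marker Tcf7l2 under 1.75. Drd1, also a striatal marker, lay between 3.11 and 3.48, and Prkcd, also a thalamic marker, between 2.57 and 3.36.

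The groups were spread unevenly over the sets in which libraries had been prepared and sequenced. Of the 5 susceptible D2 libraries 4 were in sequencing set 2, and of the 6 D2 controls 5 were in sequencing set 1. Library set 8 was the only one of the 10 library preparation sets with both D2 groups, 1 mouse of each. The B6 controls were in library sets 5, 6 and 9, which held no defeated B6 mouse. The authors had adjusted the values for both kinds of set before deposit. Read numbers ranged from 9247610 to 26439053 in D2 controls and from 9978051 to 21540354 in susceptible D2 mice.

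Susceptible D2 mice differed from D2 controls in 837 of 19559 genes (4.28%) at a limma adjusted p under 0.05, which is what called means from here on. Of these, 302 were higher (1.54% of all genes) and 535 lower (2.74%). At an unadjusted p under 0.05 there were 3444 genes (17.6%). The values of the 5 susceptible and 6 control mice did not overlap in 583 of the 837 called genes, and in 975 of all genes (4.98%). The median size of the called changes was 0.38 on the log2 scale and the largest was 3.205. Changes over 1 were found in 116 called genes, and changes under 0.5 in 545. The p values measure the spread within the groups of all 28 vHPC libraries, B6 mice included, after the authors' adjustment for sets. The fit had no term for that adjustment. With only the D2 mice in the fit 708 genes were called, of which 572 were among the 837. The deposited log2 values give no counting error for a single library.

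D2 and B6 controls differed in 11603 genes (59.3%), of which 5911 (30.2%) were higher in D2 and 5692 (29.1%) lower. All 837 genes called in susceptible D2 mice were among them, and all 837 changed along the strain difference, away from the B6 level. None changed against it, and none lacked a called strain difference. Both contrasts use the same D2 controls, which enter them with opposite signs, so this sorting is a description without a test. Of the 3444 genes with an unadjusted p under 0.05, 3280 ran along the strain difference, 0 against it and 164 had no called strain difference.

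The size of the change followed the size of the strain difference. Of the 4771 genes whose controls differed by less than 0.1 on the log2 scale, 0 were called. Between 0.5 and 1 there were 3034 genes, of which 245 were called (8.08%), with a median change of 0.18 away from the B6 level. Between 1 and 2, 265 of 1067 genes were called (24.8%), with a median of 0.33. Among the 128 genes that differed by more than 4, 103 were called (80.5%) and the median change was 1.51. Over the called genes the change was a median of 0.291 times the strain difference, with quartiles of 0.248 and 0.376.

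**Figure D1:**
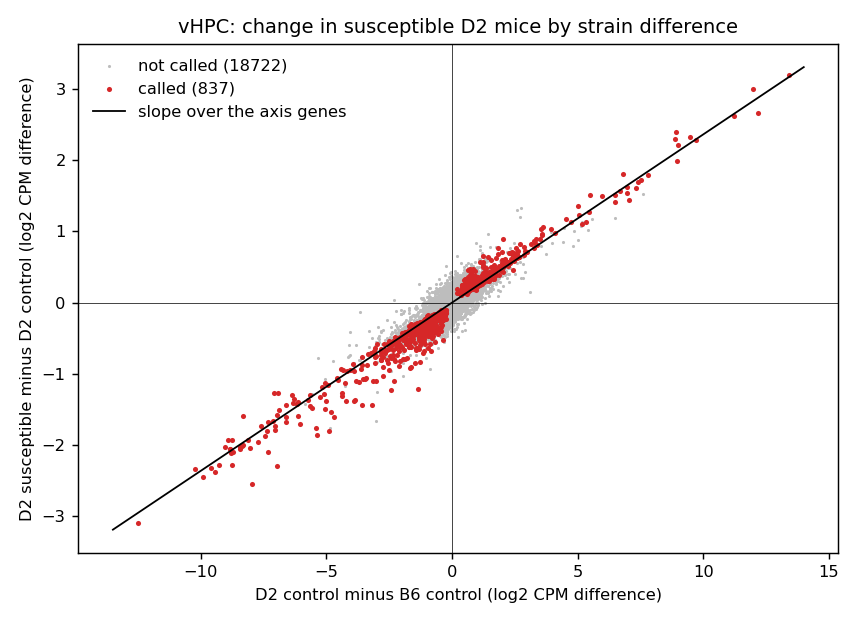
The difference between D2 susceptible and D2 control mice (log2 CPM, vertical axis) is plotted against the difference between D2 and B6 controls (log2 CPM, horizontal axis) for the 19559 genes of the vHPC, with the 837 called genes in colour and a line of slope 0.236 through the origin. The called genes lie to the upper right and lower left of the origin along the line, and none to its upper left or lower right.

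To separate changes that run along this axis from those that do not, a slope was taken from 91 genes chosen in other mice, those with a difference over 3 between the control mice of the strains in the bed nucleus of the stria terminalis (BNST). The change in susceptible D2 mice was 0.236 times the strain difference over these genes (SE 0.00317 over genes, which are not independent), and 90 of the 91 changed along it. The exception was Myo15b, an unconventional myosin, which differed by -3.57 between the strains in the BNST but only by -0.14 in the vHPC, where its change was 0.04. A contrast that subtracts this proportion of the strain difference was then tested across all genes in limma.

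No gene was called in this strain-adjusted contrast (0 of 19559, 0%), where the lowest adjusted p was 0.99997. At an unadjusted p under 0.05 there were 96 genes (0.491%), of which 60 were among the 837. That is below the share of 0.05 which this threshold gives where no gene differs, so the p values of this contrast ran high. Over all genes the median size of the remaining change was 0.045, with a median SE of 0.095. The 0 calls therefore do not show that no change lies off the strain difference. The median size of the change over the called genes was 0.38 before and 0.07 after the subtraction. The slope was fitted to the changes of these same vHPC mice and taken as known without error. All called genes ran along the strain difference, so this drop is largely fixed by the fit and is no test. The largest number called under any other setting was 15, after quantile normalization, a setting under which the slope was 0.124.

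The same 91 genes give each vHPC mouse a position between the B6 controls at 0 and the D2 controls at 1. The 6 D2 controls lay between 0.947 and 1.07, with a median of 1.002. The 5 susceptible D2 mice lay at 1.26, 1.24, 1.26, 1.26 and 1.16, all above the highest control. The lowest of them, susceptible mouse 5, was the one in library set 8 and sequencing set 1. The B6 controls lay between -0.0217 and 0.0319, the resilient B6 mice between 0.286 and 0.364 and the susceptible B6 mice between 0.439 and 0.501. Defeated mice of both strains were therefore on the D2 side of their own controls, on genes that differ between unstressed mice of the strains. The part of the preparation and sequencing sets in these positions was not tested.

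**Figure D2:**
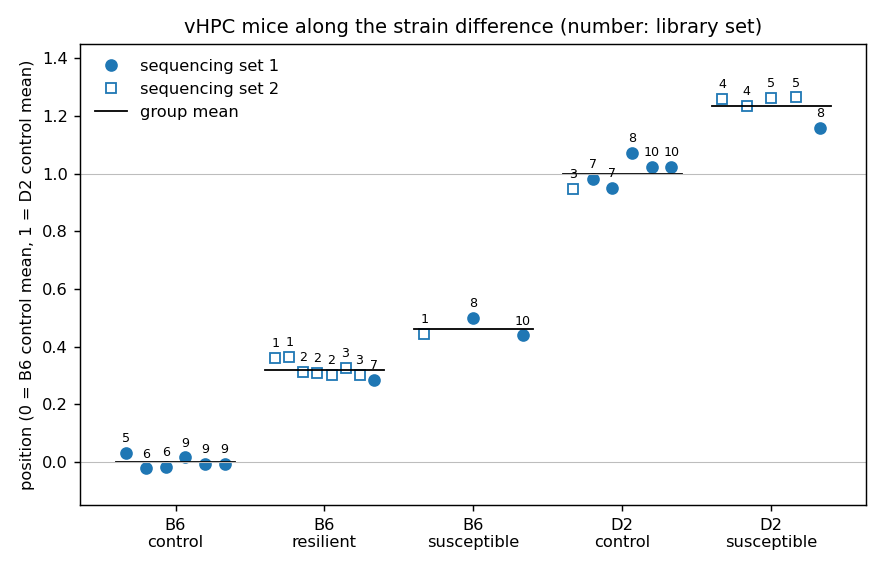
The position of each of the 28 vHPC mice between the B6 control mean (0) and the D2 control mean (1) is drawn by group, with the library set as a number, the sequencing set as the symbol and the group mean as a line. The 5 susceptible D2 mice sit between 1.16 and 1.26, above all 6 D2 controls, and the defeated B6 mice sit between 0.286 and 0.501.

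Called genes were ranked by a score, the change times -log10 of its p. Among those with a mean of at least 1 log2 CPM in D2 mice, all susceptible mice on 1 side of the control mean and a symbol that is not that of a predicted gene or pseudogene, the 6 with the highest scores were transcripts low or close to absent in B6 controls. Sycp1 (chr3:102818499-102936100, GRCm38), a protein of the synaptonemal complex that pairs chromosomes in meiosis, ranged from 2.8 to 4.265 log2 CPM in D2 controls, with a median of 3.211. In the susceptible mice it was 6.195, 6.630, 6.834, 6.358 and 5.719. Every susceptible mouse was above every control, and the difference was 3.00 (SE 0.26, adjusted p = 8.3e-08). The B6 controls had a median of -8.86, and all 6 lay under the level that a count of 0 gives, so the strain difference of 12.00 is a fitted value whose size the reads do not measure.

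Stab2 (chr10:86841198-87008025), a scavenger receptor that takes up hyaluronan, ranged from 6.58 to 7.51 in D2 controls with a median of 7.23. It was 8.32, 9.50, 9.02, 9.21 and 8.20 in susceptible mice, again without overlap (difference 1.72, SE 0.20, adjusted p = 4.78e-06, strain difference 7.50). Prss41 (chr17:23836785-23844172), a serine protease, ranged from 0.747 to 1.756 in D2 controls with a median of 1.068. Its values in susceptible mice were 3.347, 2.647, 3.450, 2.728 and 2.132, all above the controls (difference 1.69, SE 0.31, adjusted p = 0.00129, strain difference 7.40).

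The other 3 of these 6 genes belong to families of near-identical copies, so that their reads may be split between copies and their levels are uncertain. Serpina3m (chr12:104338486-104394257), a secreted inhibitor of serine proteases, had a median of 2.169 in D2 controls and 4.144, 4.670, 4.339, 4.780 and 4.102 in susceptible mice (difference 2.32, SE 0.29, adjusted p = 1.12e-05). Rprl3 (chr8:3803069-3803358) and Rprl2 (chr3:22251374-22251663), copies of the RNA of ribonuclease P, differed by 2.67 (SE 0.41, adjusted p = 0.000137) and 1.81 (SE 0.34, adjusted p = 0.00127). In all 3 genes the groups did not overlap, and the fitted strain differences were 9.47, 12.18 and 6.82. The B6 controls lay under the level of a count of 0 in 6 of 6 mice for Serpina3m and Prss41 and in 4 of 6 for Rprl3 and Rprl2, so the sizes of these strain differences are not measured either.

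By the same rule, the 6 genes with the lowest scores were more abundant in B6 controls than in D2 mice. Myo7a (chr7:98051060-98119524), the unconventional myosin of sensory hair cells, ranged from 1.186 to 2.803 in D2 controls with a median of 1.724, against a B6 median of 6.97. It was 0.408, 0.382, 0.640, -0.022 and 0.871 in susceptible mice (difference -1.32, SE 0.21, adjusted p = 0.000284). Mcm6 (chr1:128331590-128359664), a subunit of the helicase that opens DNA for replication, ranged from 1.81 to 2.19 in D2 controls with a median of 1.93. All susceptible mice were below them, at 0.98, 1.32, 1.25, 0.90 and 1.16 (difference -0.84, SE 0.09, adjusted p = 1.63e-06, strain difference -3.05).

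Hjurp (chr1:88262471-88277633), the chaperone that places the centromeric histone, ranged from 4.670 to 5.009 in D2 controls with a median of 4.823, and was 4.122, 4.212, 4.186, 4.049 and 4.362 in susceptible mice. Its difference was -0.64 (SE 0.06, adjusted p = 1.38e-07) and its strain difference -2.51. Scoc (chr8:83430084-83458391), a coiled-coil protein of the Golgi, fell by 0.77 (SE 0.10, adjusted p = 1.1e-05). Acp1 (chr12:30893326-30911589), a small protein tyrosine phosphatase, fell by 0.87 (SE 0.13, adjusted p = 6.74e-05). Rpsa (chr9:120127689-120132369), a ribosomal protein with many processed copies in the genome and so of uncertain level, fell by 0.95 (SE 0.14, adjusted p = 7.27e-05). The groups did not overlap in any of these 4 genes.

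**Figure D3:**
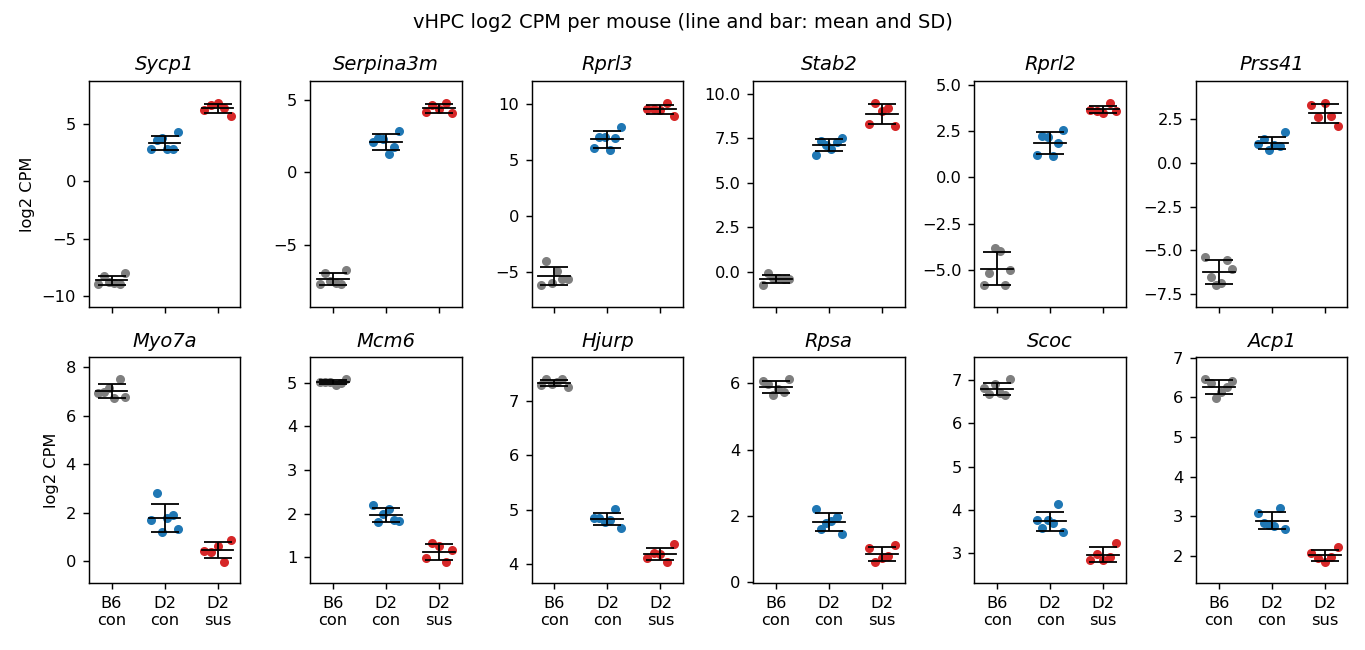
The level of selected genes (log2 CPM, vertical axes) is drawn for each B6 control, D2 control and D2 susceptible mouse, with the mean and SD of each group. In each panel the susceptible D2 mice lie farther from the B6 controls than the D2 controls do, as for Sycp1, from a median of 3.21 in D2 controls to between 5.72 and 6.83.

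The lowest score of all genes was that of Gm5148 (chr3:37714190-37724490), a predicted protein-coding gene. It ranged from -3.36 to -2.45 in D2 controls with a median of -2.87, and was -5.26, -5.23, -5.50, -5.53 and -5.72 in susceptible mice, a difference of -2.55 (SE 0.16, adjusted p = 4.06e-10). Its mean in B6 controls was 5.08. D2 values this low lie near or under what 1 read gives. Values under the level that a count of 0 gives were found in each of the 5 susceptible D2 libraries (31 to 47 genes per library, 202 in all), in D2 controls (65 in all) and in B6 controls (124 in all), and 50 of the 837 called genes had such a value in a D2 mouse. The lowest value was -8.98. With all genes that held such a value in any library left out, 734 genes were called, all 734 along the strain difference.

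Most called genes were not at that end of the scale. The mean over D2 mice was at least 1 log2 CPM in 643 of the 837, and under 0 in 138. Protein-coding genes made up 73.7% of the called genes and 73.8% of all genes, and pseudogenes 8.12% and 7.47%. Of the 46 called genes whose biotype the annotation gives as TEC, a provisional class without settled function, 41 were lower in susceptible mice.

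Some of the called genes had a change that was large for their strain difference, and 3 of them were chosen here after their values were seen. Otc (chrX:10252305-10321024), the ornithine carbamoyltransferase of the urea cycle, had a mean of -0.56 ± 0.25 in D2 controls and -1.77 ± 0.61 in susceptible mice (SD). Its change of -1.21 (SE 0.22, adjusted p = 0.00103) was almost as large as its strain difference of -1.35, and -0.89 remained after the subtraction (limma unadjusted p = 0.00132). Tnni1 (chr1:135779434-135810989), the troponin I of slow skeletal muscle, had a mean of -2.86 ± 0.37 in D2 controls and -5.15 ± 0.32 in susceptible mice, and -0.65 of its change of -2.30 remained. For Gm5148 -0.67 remained. None of these remainders passed the adjustment over all genes, and for all 3 genes the levels in D2 mice rest on few or no reads.

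Among better expressed genes, Prkab2 (chr3:97658193-97673812), the beta subunit of the energy sensor AMP-activated kinase, rose from 5.93 ± 0.06 to 6.12 ± 0.09. Its change of 0.19 (SE 0.05, adjusted p = 0.0246) was close to its strain difference of 0.21, the smallest of any called gene, and 0.14 remained. Ghrl (chr6:113716119-113719880), which encodes the hormone ghrelin, rose from 2.55 ± 0.13 to 2.87 ± 0.15 (change 0.32, adjusted p = 0.00723), of which 0.21 remained. Nsun3 (chr16:62732444-62786818), an RNA methyltransferase of mitochondria, fell from 3.42 ± 0.10 to 3.19 ± 0.11 (change -0.23, adjusted p = 0.0187), of which -0.17 remained. These 3 genes were also chosen after their values were seen.

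The 837 genes were then followed in the other regions, in separate fits. In the medial prefrontal cortex (mPFC) 746 of them were measured, and 534 had a called strain difference in the direction of the vHPC change, 9 in the opposite direction and 203 no call. In the BNST, 694 were measured and the numbers were 150, 5 and 539. The median size of the strain difference of these genes was 0.52 in the mPFC and 0.41 in the BNST, beside 1.179 and 1.118 for the same genes in the vHPC.

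The change in susceptible D2 mice did not have the same size there. In the direction of the vHPC change, the median over the called genes was 0.02 for the mPFC and 0.07 for the BNST, beside 0.38 for the vHPC. These genes were chosen by their vHPC change, which favours a larger value for the vHPC. The direction was that of the vHPC in 460 of 746 genes in the mPFC and in 420 of 694 in the BNST. Over the 91 genes chosen in the BNST, the slope of the change on each region's own strain difference was 0.0426 for the mPFC and -0.0279 for the BNST, beside 0.236 for the vHPC. Sycp1 changed by 0.10 in the mPFC, where its strain difference was 5.16, and Stab2 by 0.27 in the mPFC and 0.33 in the BNST, with strain differences of 7.03 and 5.84. Myo7a changed by -0.07 in the mPFC and 0.72 in the BNST.

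**Figure D4:**
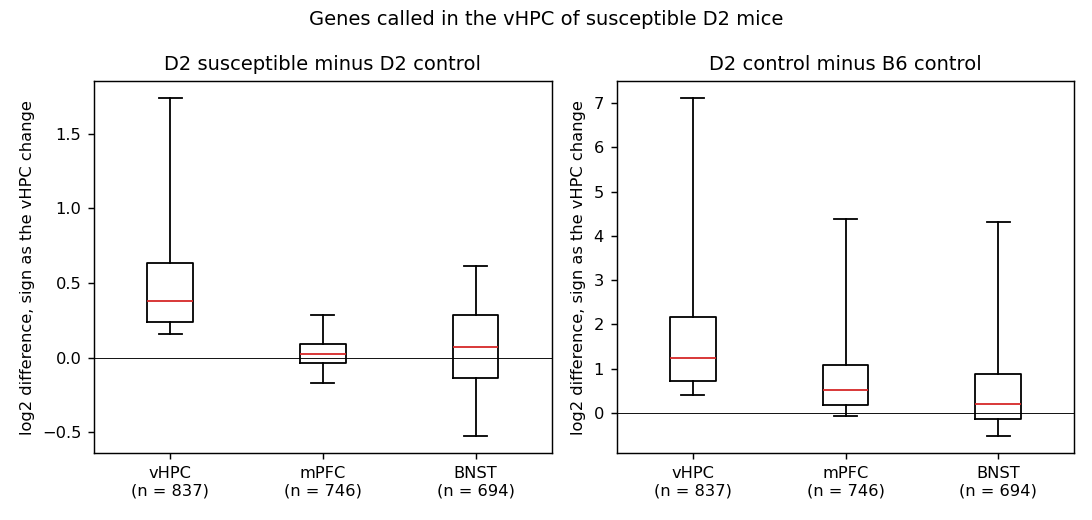
For the genes called in the vHPC, the left and right panels show the change in susceptible D2 mice and the strain difference in the vHPC (n = 837), mPFC (n = 746) and BNST (n = 694), in log2 units and with the sign of the vHPC change. The median change is 0.38 for the vHPC, 0.02 for the mPFC and 0.07 for the BNST.

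Across all genes, the contrast of susceptible with control D2 mice gave 0 called genes of 18946 in the mPFC with limma (0%), where 734 had an unadjusted p under 0.05 (3.87%). For the BNST edgeR called 0 of 17515 (0%), where 1056 had an unadjusted p under 0.05 (6.03%), and DESeq2 called 12 (0.0685%). The strain difference was called in 5265 mPFC genes (27.8%) and 439 BNST genes (2.51%).

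Susceptible D2 mice 2 and 5 and D2 control 5 gave both a vHPC and an mPFC library. Against that control, 732 and 735 of the 746 genes differed in the direction of the group contrast in the vHPC, with medians of 0.38 and 0.35. In the mPFC of the same mice, 406 and 486 genes did, with medians of 0.02 and 0.08. The slope on the strain difference was 0.284 and 0.208 in the vHPC and -0.0338 and 0.0911 in the mPFC. The 746 genes were called in a contrast that held these vHPC libraries, so their vHPC directions and medians are largely fixed by that choice. The slopes rest on genes chosen by the strain difference of the BNST. By the slopes, the shift was seen in the vHPC libraries of these mice and not to the same size in their mPFC libraries. This difference was not tested.

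In B6 mice, the contrast of 3 susceptible with 6 control mice shares no mouse with the D2 contrast. The values had been adjusted for library sets before deposit, and library set 5 held 1 B6 control and 2 susceptible D2 mice. The contrasts may therefore not be independent. All 837 genes had the same direction in B6 mice, with a median of 0.69, so that in both strains defeated mice were farther toward, or beyond, the D2 level. The difference between the D2 and the B6 change was itself called in 153 genes (0.782%), of which 133 were also called in D2 mice. In 31 of the 133 a mouse of the groups compared had a value under the level of a count of 0, so that the sizes are not measured. In the other 102 the B6 change had the same direction and was the larger. With all genes that held such a value in any library left out of the fit, the difference was called in 84. Stab2, which had no such value, rose by 3.64 in B6 and 1.72 in D2 mice, a difference of -1.92 (adjusted p = 0.00328).

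Within the sets, most of the called genes kept their direction, but they had been called on these same libraries. Their directions and medians within a set are largely fixed by that choice and do not test it. In library set 8, susceptible mouse 5 differed from control 6 in the direction of the group contrast in 806 of the 837 genes, with a median of 0.28 and a slope of 0.0849 on the strain difference. In sequencing set 1, with 1 susceptible mouse and 5 controls, the numbers were 837, 0.34 and 0.148. In sequencing set 2, with 4 susceptible mice and 1 control, they were 834, 0.38 and 0.309. With sequencing set as a covariate 380 genes were called, all 380 along the strain difference. With library set as a covariate 3 were called (Gm5148, Tnni1 and Otc), the median change in the direction of the group contrast was 0.27 and 802 genes kept the direction, while the median SE grew from 0.08 to 0.20. In that fit 301 of the 837 genes had a change at least as large as without the covariate, and 278 had under 0.5 times that change.

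Changes in groups of genes were described with 31 lists, which held 481 measured genes. Of these, 29 were called (6.03%, beside 4.28% of all genes), 11 higher (beside 1.54% of all genes) and 18 lower (beside 2.74%), and 15 lists had no called member. The median change over all genes was 0.00. Since the tissue is a mixture of cells, fewer cells of a type and less RNA per cell cannot be told apart.

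**Figure D5:**
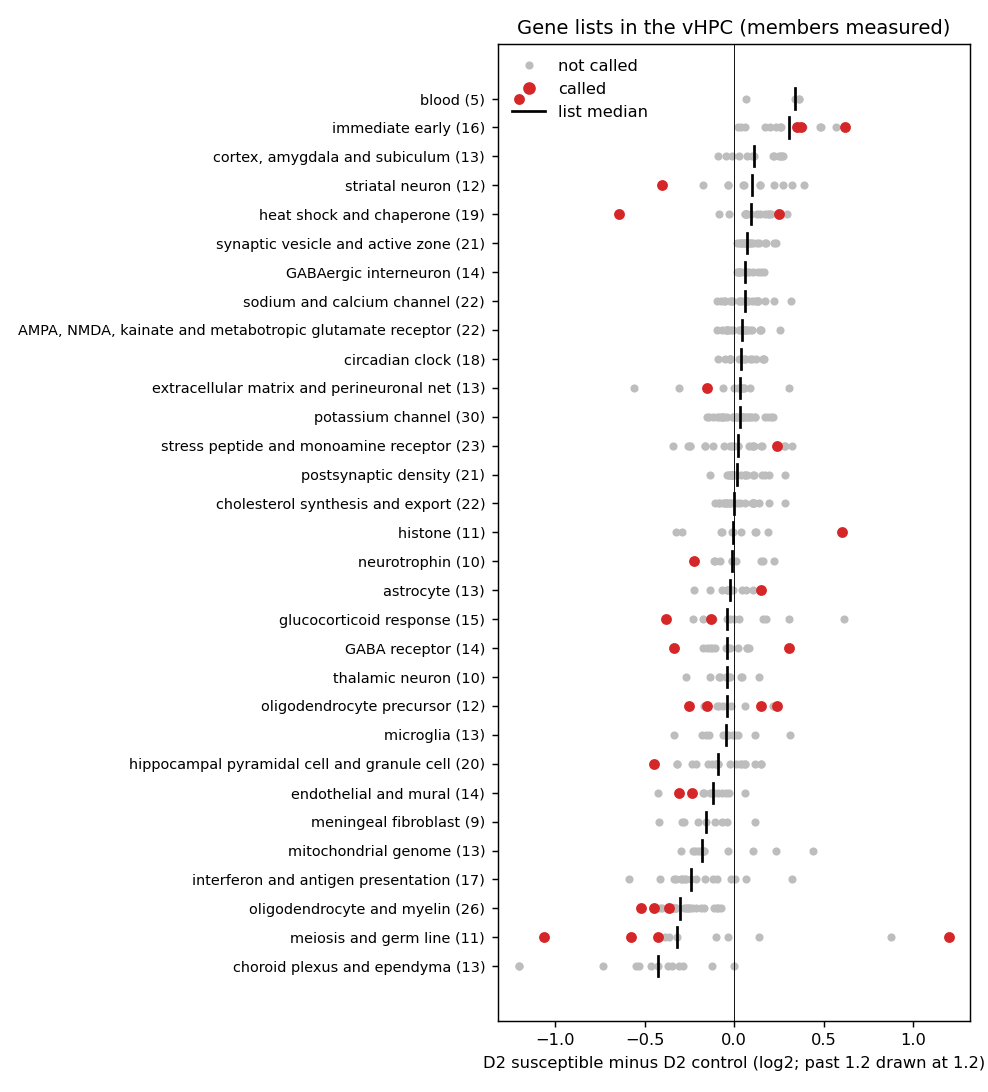
The change in susceptible D2 mice (log2 CPM, horizontal axis) is drawn for each measured member of 31 gene lists, with called members in colour and the median of each list as a bar. The immediate early genes lie to the right of 0 with a median of 0.31, and the oligodendrocyte and myelin genes to the left with a median of -0.30.

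Immediate early genes, which neurons transcribe within minutes of activity, were the list with the most called members in the upward direction. Of 16 measured, 3 rose (beside 1.54% of all genes called higher), 0 fell, and all 16 had a difference above 0, with a median of 0.31. The 3 were Fosb, Junb and Jun, subunits of the AP-1 transcription factor, in which a Fos protein pairs with a Jun protein. Their promoters are shown because these 3 genes moved together. Each stretch runs from 250 bases before the RefSeq transcription start to 30 after it (RefSeq, GRCm38.p6, read 5′ to 3′ on the minus strand on which all 3 genes lie), with matches to the searched motifs in capitals.
Fosb, chr7:19310016-19310295: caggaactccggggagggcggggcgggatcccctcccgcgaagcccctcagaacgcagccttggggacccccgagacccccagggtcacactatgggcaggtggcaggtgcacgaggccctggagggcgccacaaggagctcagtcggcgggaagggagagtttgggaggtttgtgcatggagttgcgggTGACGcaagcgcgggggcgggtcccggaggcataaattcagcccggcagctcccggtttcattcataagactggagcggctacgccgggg
Junb, chr8:84978719-84978998: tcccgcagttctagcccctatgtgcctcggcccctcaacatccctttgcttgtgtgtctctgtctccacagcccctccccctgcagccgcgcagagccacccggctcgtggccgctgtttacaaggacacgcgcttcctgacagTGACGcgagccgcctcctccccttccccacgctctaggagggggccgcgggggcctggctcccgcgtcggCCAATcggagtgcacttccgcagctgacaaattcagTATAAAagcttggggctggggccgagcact
Jun, chr4:95052193-95052472: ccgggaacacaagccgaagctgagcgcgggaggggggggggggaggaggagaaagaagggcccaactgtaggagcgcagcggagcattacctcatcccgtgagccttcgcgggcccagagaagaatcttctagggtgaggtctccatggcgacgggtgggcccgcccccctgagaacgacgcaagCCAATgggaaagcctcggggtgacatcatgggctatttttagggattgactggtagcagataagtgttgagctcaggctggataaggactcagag

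The motifs were searched on both strands. TGACG, the half-site of the cyclic AMP response element, was found at position -60 of Fosb and -106 of Junb, counted from the start, and is present in 19.9% of 32851 RefSeq promoters of the same length. CCAAT was found in Junb and Jun (36.1% of promoters), and TATAAA in Junb (13.1%), at position 0, on the RefSeq start itself. The Junb window lies wholly upstream of the GENCODE gene, which begins at 84978718 on the minus strand. The AP-1 site TGACTCA (4.94%) was in none of the 3, nor was the full cyclic AMP response element TGACGTCA (1.74%), which contains TGACG. These matches describe the letters of the window and are not binding sites.

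Fosb (chr7:19302696-19310051) ranged from 1.966 to 2.538 log2 CPM in D2 controls with a median of 2.236. It was 2.524, 2.948, 2.913, 2.843 and 3.058 in susceptible mice, 4 of which were above every control, and the difference was 0.62 (SE 0.14, adjusted p = 0.00683). Jun (chr4:95049034-95052222) ranged from 6.305 to 6.459 with a median of 6.383, against 6.615, 6.782, 6.817, 6.674 and 6.786 in susceptible mice, all above the controls (difference 0.35, SE 0.07, adjusted p = 0.00459). Junb (chr8:84974484-84978718) ranged from 5.928 to 6.194 with a median of 5.999. It was 6.403, 6.312, 6.187, 6.671 and 6.437 in susceptible mice, the lowest of which lay just under the highest control, so that the groups overlapped (difference 0.37, adjusted p = 0.00522). Fos, the partner of the Jun proteins, differed by 0.57 (SE 0.22, adjusted p = 0.17) and was not called, and Npas4, which neurons induce on calcium entry, by 0.48 (SE 0.18, adjusted p = 0.13).

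All 3 called genes were higher in D2 than in B6 controls in the vHPC, by 1.74 for Fosb, 0.93 for Jun and 0.91 for Junb. In the mPFC the strain difference of the same genes was -0.11, -0.02 and 0.11, and in the BNST -0.52, -0.12 and -0.92, none of them called. After the subtraction of the strain difference, 0.21 of the change of Fosb, 0.13 of that of Jun and 0.16 of that of Junb remained, none past the adjustment. In library set 8 the susceptible mouse was above the control by 0.86, 0.35 and 0.47, and by 1.454 for Fos. With library set as a covariate the changes were 0.93 for Fosb, 0.46 for Jun and 0.38 for Junb, none of them called, and the median of the list was 0.40. The median change of the list was 0.07 in the mPFC and -0.03 in the BNST.

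The 26 oligodendrocyte and myelin genes all had a difference below 0, with a median of -0.30. Of these 3 fell, beside 2.74% of all genes called lower. Mal (chr2:127633226-127656695), a proteolipid of compact myelin, ranged from 5.959 to 6.657 in D2 controls with a median of 6.096, and was 5.695, 5.563, 5.692, 5.569 and 5.895 in susceptible mice, all below the controls (difference -0.52, SE 0.11, adjusted p = 0.00484). Mobp (chr9:120149707-120181484), a structural protein of central myelin, ranged from 7.363 to 8.130 with a median of 7.522. It was 7.220, 6.967, 7.153, 7.025 and 7.452 in susceptible mice, so that the groups overlapped (difference -0.45, SE 0.11, adjusted p = 0.0221). Mag (chr7:30899176-30914873), the adhesion protein between myelin and axon, fell by 0.37 (SE 0.10, adjusted p = 0.0397).

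In all 26 genes the D2 controls were also called lower than the B6 controls, and the median change after the subtraction was -0.02. In library set 8 the susceptible mouse differed from the control by -0.06 for Mal, 0.09 for Mobp and 0.06 for Mag. The list median there was 0.15, with 20 genes above 0 and 6 below. With library set as a covariate the list median was 0.02, with 14 genes above 0 and 12 below. In the BNST, measured in other mice and deposited as counts with no adjustment for sets, the median was -0.67 and all 26 differences were below 0. None of these was called in edgeR. The strain difference there was 0.10 for Mal, 0.37 for Mobp and 0.51 for Mag, of the opposite sign to the vHPC but not called. In the mPFC the median change was -0.05. Other lists moved in the BNST contrast too. The median there was -0.35 for the astrocyte list (12 of 13 genes below 0) and -1.49 for the thalamic list (9 of 10 below 0). For the list of cortex, amygdala and subiculum it was 0.25 (8 of 13 above 0). Whether these shifts are linked to that of the myelin genes was not tested.

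Precursors of oligodendrocytes gave mixed results. Of 12 markers, Olig2, the transcription factor of the lineage, rose by 0.24 (SE 0.07, adjusted p = 0.0457), with a range of 4.302 to 4.571 in controls and values of 4.724, 4.580, 4.707, 4.674 and 4.825 in susceptible mice, all above the controls. Cspg5, a proteoglycan of the precursors, rose by 0.15 (adjusted p = 0.0377). Vcan, the matrix proteoglycan versican, fell by 0.15 (adjusted p = 0.0197) and Lhfpl3 by 0.25 (adjusted p = 0.0215). The defining markers Pdgfra and Cspg4 differed by -0.08 and -0.10 and were not called.

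Of 13 astrocyte genes, Ndrg2 rose by 0.15 (SE 0.04, adjusted p = 0.03) and none fell. None of 13 microglial genes was called, and of these C1qb, of the complement system, differed by -0.34 (adjusted p = 0.0672). Of 14 endothelial and mural genes 2 fell, beside 2.74% of all genes. They were Ocln, which encodes the tight junction protein occludin and fell by 0.31 (SE 0.06, adjusted p = 0.000978), and Tek, the receptor of the angiopoietins, which fell by 0.23 (SE 0.05, adjusted p = 0.00654). Ocln was 3.83, 3.68, 3.77, 3.73 and 3.82 in susceptible mice and no lower than 4.02 in controls.

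Choroid plexus and ependymal genes varied among mice within each group. The summed level of the 13 genes ranged from 5.14 to 9.17 in controls and from 4.39 to 7.29 in susceptible mice, none was called, and Folr1, a folate carrier of that tissue, differed by -1.77 (SE 0.91, adjusted p = 0.316). The part of choroid plexus tissue in the other results was not tested. Of 5 blood genes, 1 was called, beside 4.28% of all genes. It was Hba-a2, a haemoglobin copy with a near-identical neighbour. Its D2 values between -8.29 and -4.05 rest on no reads or few. Hba-a1 and Hbb-bs differed by 0.34 and 0.36 and were not called.

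Among receptors for the main inhibitory transmitter, 2 of 14 genes were called in opposite directions, beside 4.28% of all genes called. Gabra2 (chr5:70957597-71095849), the alpha 2 subunit of the GABA-A receptor, ranged from 7.80 to 7.98 in controls with a median of 7.89. It was 8.16, 8.33, 8.29, 8.21 and 8.04 in susceptible mice, all higher (difference 0.31, SE 0.06, adjusted p = 0.00188). Gabra5 (chr7:57407672-57510059), the alpha 5 subunit that carries tonic inhibition in the hippocampus, ranged from 6.13 to 6.27 with a median of 6.19. It was 5.84, 5.81, 5.96, 5.69 and 5.98, all lower (difference -0.34, SE 0.06, adjusted p = 0.000792).

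The strain differences of these subunits were 1.48 and -1.07. Both changes remained called with sequencing set as a covariate, at 0.27 and -0.25. In library set 8 the differences were 0.06 for Gabra2 and -0.16 for Gabra5. With library set as a covariate the changes were 0.06 for Gabra2 and -0.18 for Gabra5, neither called. In the mPFC Gabra2 changed by 0.04 and Gabra5 by 0.01, and in the BNST by -0.25 and 0.28, none of them called.

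Of 23 receptors and peptides of stress and monoamine signalling 1 was called, beside 4.28% of all genes. The oxytocin receptor gene Oxtr (chr6:112473683-112489943) rose by 0.24 (SE 0.07, adjusted p = 0.0397). It ranged from 4.081 to 4.418 in controls with a median of 4.188, and was 4.357, 4.436, 4.355, 4.518 and 4.594 in susceptible mice, with overlap. Its strain difference was 0.40, the difference in library set 8 was 0.51, and its change was 0.14 in the mPFC and 0.38 in the BNST, not called in either. Crhr1, the main receptor of corticotropin-releasing hormone, differed by 0.29 (adjusted p = 0.0926).

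Of 15 genes of the glucocorticoid response 2 fell, beside 2.74% of all genes. Mt2, a metallothionein, fell by 0.38 (SE 0.11, adjusted p = 0.0427). Klf9, a transcription factor induced by the hormone, fell by 0.13 (SE 0.04, adjusted p = 0.0336). Mt2 was not called with sequencing set as a covariate, where it differed by -0.18 (adjusted p = 0.495), and it differed by 0.0054 in sequencing set 2 alone. Fkbp5, a co-chaperone that the hormone receptor induces, differed by 0.03 (SE 0.14, adjusted p = 0.947), and the receptor gene Nr3c1 by less than 0.01. Of 10 neurotrophin genes, Bdnf (chr2:109674700-109727007), the growth factor brain-derived neurotrophic factor, fell by 0.22 (SE 0.06, adjusted p = 0.038). It ranged from 4.780 to 5.048 in controls with a median of 4.849 and was 4.742, 4.6, 4.728, 4.564 and 4.621 in susceptible mice, all below the controls.

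Of 19 heat shock and chaperone genes, Dnajb1, an Hsp40 co-chaperone, rose by 0.25 (SE 0.07, adjusted p = 0.0379) and Hspa8, the constitutive Hsp70, fell by 0.64 (SE 0.10, adjusted p = 0.000157). Hspa8 has processed copies in the genome, its strain difference was -3.07, and its level is uncertain for that reason. The histone gene Hist1h4i, which has near-identical copies too, rose by 0.60 (SE 0.14, adjusted p = 0.011). Rgs9, a regulator of G proteins and a marker of the striatum, fell by 0.40 (SE 0.06, adjusted p = 9.61e-05), while the striatal markers Drd1 and Adora2a differed by -0.03 and 0.15. Tdo2, a tryptophan-degrading enzyme expressed in the hippocampus, fell by 0.45 (SE 0.12, adjusted p = 0.0318).

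Genes of meiosis, which neurons do not use for that purpose, had 4 called members of 11, beside 4.28% of all genes. Sycp1 rose as described, and Rec8, a cohesin subunit of meiosis, fell by 1.06 (SE 0.13, adjusted p = 1.02e-05). Rec8 ranged from -0.94 to -0.12 in D2 controls with a median of -0.41, and was -1.40, -1.51, -1.43, -1.58 and -1.74 in susceptible mice, all lower. Smc1b, another meiotic cohesin, fell by 0.58 (SE 0.16, adjusted p = 0.0342) and Syce2, of the synaptonemal complex, by 0.43 (SE 0.10, adjusted p = 0.0088). In library set 8 Rec8 differed by -1.37 and Smc1b by -1.17, while Sycp1 differed by 1.454.

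No member was called in the lists of meningeal fibroblasts, cortical, thalamic and GABAergic neurons, glutamate receptors, potassium channels, sodium and calcium channels, the synaptic vesicle, the postsynaptic density, the mitochondrial genome, the circadian clock, interferon and antigen presentation, and cholesterol synthesis. The 21 synaptic vesicle genes all had a difference above 0, with a median of 0.07, against a median of -0.08 in the mPFC, where all 21 were below 0. The 13 measured genes of the mitochondrial genome had a median of -0.18, and the 17 of interferon and antigen presentation of -0.24. These 2 medians were 0.12 and -0.09 with sequencing set as a covariate and 0.42 and 0.25 with library set as a covariate.

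The called members of the lists differed in the size they had between mice of 1 set. The differences in library set 8 were at least as large as the group contrast for Fosb, Junb, Oxtr, Dnajb1, Olig2, Hist1h4i, Tek, Rec8 and Smc1b, and were under 0.1 in size for Mal, Mobp, Mag, Gabra2, Ndrg2, Klf9, Cspg5 and Hspa8. Each of these is the difference between 1 susceptible and 1 control mouse and has no test. Of those under 0.1, Mobp and Mag had the opposite sign to the group contrast. For Klf9 and Cspg5 that contrast was itself small, at -0.13 and 0.15.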

How the data were processed

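RNA was sequenced from dissected vHPC, mPFC and BNST, 1 library per mouse and region. According to the methods, the authors cleaned reads of adapters and PCR duplicates, mapped them with STAR (GRCm38) and used HTSeq to count them over exons of genes. The vHPC and mPFC tables were deposited as log2 CPM after a filter on low counts, voom and ComBat adjustment, for the sets of library preparation and, in vHPC alone, also of sequencing. Which groups ComBat was told to keep is not given in the sources used here. A set adjustment can move group differences where sets and groups overlap little. The BNST table was deposited as read counts. The set and read number of each library were taken from the study's sample sheet.

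In R 4.3.3, the 28 vHPC libraries were fitted with limma 3.58.1 (robust empirical Bayes, a mean per group), and genes were called at a two-sided Benjamini-Hochberg adjusted p under 0.05 over 19559 genes. Called genes were sorted by the sign and call of D2 minus B6 controls. The strain-adjusted contrast subtracted 0.236 times that difference. The mPFC was fitted in the same way. The BNST was fitted with edgeR 4.0.16 (quasi-likelihood, TMM, at least 1 CPM in at least 6 libraries), with DESeq2 1.42.0 as an alternative. Summaries and figures were made in Python 3.11.15 with pandas 2.3.3 and matplotlib 3.10.9. Positions and biotypes came from GENCODE M21, where 19476 vHPC genes (99.6%) had a symbol. Promoters came from RefSeq. The fits were tested on simulated data.

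Genes named were the 6 highest and 6 lowest by -log10(p)*logFC among called genes along the strain difference with a mean of at least 1 log2 CPM in D2 mice, all susceptible mice on 1 side of the D2 control mean and a symbol that is not that of a predicted gene (Gm with digits, Rik, or a pseudogene), the called members of the lists (or members with the largest changes where none was called), the extremes over all genes and those of the strain by stress difference. Others are marked as chosen after their values were seen. The rule named the same number of genes that do not run along the strain difference, of which there were none. The comparison, the lists and the tests were chosen with earlier results of these data known. Alternatives were other moderation, filters, scalings, weights and thresholds, sets as covariates or alone, D2 mice alone, other strain differences and slopes, and leaving out each D2 mouse.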

Additional observations from a re-analysis of the deposited data

Results flagged for a closer look

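Dixon's criterion was applied to 92 groups of values, each from the 6 D2 controls or the 5 susceptible D2 mice. It found 4 values far from the others. Chance gives about 1 in 20 groups, so 4 is no more than chance gives. Susceptible D2 mouse 5, in library set 8, gave 3 of the 4. Its position between the control means was 1.16, below the other susceptible mice. It had 6820402A03Rik at -7.03 and Gm26498, a small nucleolar RNA gene with near-identical copies, at -6.54 log2 CPM, both under the level of a count of 0. The fourth value was that of Fam205c in D2 control 5, at -1.60.

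The D2 change differed from the B6 change (limma interaction, adjusted p under 0.05) in the 6 genes named as extremes of that difference. The direction of change was the same in D2 and B6 mice in each. Other named genes passed as well, among them Hjurp (D2 change minus B6 change 0.60), Hspa8 (0.86) and Gabra2 (-0.50). Of the 6, Stab2 had a D2 change minus B6 change of -1.92. In the other 5 the fitted values were -2.57 for Sycp1, -3.10 for Gm13394, 3.06 for 6820402A03Rik, 2.40 for Gm26498 and 2.204 for Fam205c. All 6 B6 controls lay under the level of a count of 0 for Sycp1 and Gm13394, as did all 5 susceptible D2 mice for 6820402A03Rik and Gm26498 and 4 of them for Fam205c, so for these 5 genes the reads do not measure the size of the difference or which strain changed more.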

How the results depend on the processing

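The number of called genes stayed between 656 and 871 under other moderation, filters and scalings, and each of the 837 genes that was still tested kept its direction, save under quantile normalization, where 818 did. The number moved by over 1.5 times with sequencing set as a covariate (380 called, 380 along the strain difference), library set as a covariate (3 called, 2 along, 1 not along, 1 in the strain by stress difference, slope 0.0665), sequencing set 1 alone (4 called, 4 along, 36 in the strain by stress difference, slope 0.146), sequencing set 2 alone (62 called, 62 along, its lone control assumed to vary like the others), library weights (1344 called, 1340 along, 4 not along, 1506 in the strain by stress difference) and an adjusted p under 0.01 (384 called, 384 along). Quantile normalization gave 1 gene not along the strain difference, 15 in the strain-adjusted contrast, 434 in the strain by stress difference and a slope of 0.124. Genes not along numbered 1 with D2 mice alone, 2 with libraries centred on their median and 1 with the strain difference called at 0.01. Sorted by the strain difference of other regions, 150 genes ran along and 544 did not in the BNST, and 534 and 212 in the mPFC. Leaving out genes with a value under the level of a count of 0, chosen after seeing the data, gave 84 genes in the strain by stress difference. The cause of these shifts was not tested.

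Leaving out each D2 mouse in turn gave 552 to 799 called genes, 552 to 794 along and 0 to 5 not along, 63 to 157 in the strain by stress difference and 0 in the strain-adjusted contrast. Over 1.5 times fewer were called without susceptible mouse 4 (552), and the strain by stress difference fell to 63 without susceptible mouse 5 and to 82 without control 6. Without control 4, 5 genes did not run along. The Mt2 change turned to 0.0054 in sequencing set 2 alone. Of 45 named genes, 15 lost their call with sequencing set as a covariate, among them Mal, Mobp, Mag, Junb, Olig2, Oxtr and Bdnf, and 44 with library set as a covariate. No paired analysis was possible because, within the vHPC, no mouse is in more than 1 of the groups compared and the labels give neither litters nor shared replicate numbers.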

Other observations

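Called genes were seen on every autosome and on chromosome X, from 2.11% of the genes of chromosome X to 6.25% of those of chromosome 7 (99 of 1585), while limma called 0 of 5 genes of chromosome Y and 0 of 24 of the mitochondrial genome. Windows of equal length were then counted along the chromosomes, and 3 are given, chosen after their values were seen. Between 58000001 and 60000000 on chromosome 7, 12 of 32 genes were called, 1 higher and 11 lower, and most were copies of small nucleolar RNA genes that cannot be told apart by their reads. Between 48000001 and 50000000 on chromosome 5, 8 of 40 genes were called, all lower, among them Kcnip4, which encodes a protein that binds Kv4 potassium channels. Between 70000001 and 72000000 on chromosome 8, 10 of 75 genes were called, 5 higher and 5 lower, among them Jund, the remaining Jun family gene.

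Of the genes with an unadjusted p under 0.05 and no called strain difference, Tmprss9, a membrane-bound serine protease, changed most by p among protein-coding genes. It went from 1.139 ± 0.22 in D2 controls to 1.448 ± 0.10 in susceptible mice (SD), a difference of 0.31 (SE 0.10, adjusted p = 0.0869) beside a strain difference of 0.09.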
